A study of Sus scrofa with 3 samples.

Results

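The chemokines described here are 8 CXC chemokines (CXCL2, CXCL8, CXCL9, CXCL10, CXCL11, CXCL12, CXCL14 and CXCL16) and the CC chemokine CCL20. They were found on a porcine Agilent microarray by the gene name of a probe, an older name of the gene included (IL8 for CXCL8, SR-PSOX for CXCL16), or by the probe's description. The search gave 15 of 43603 gene probes and 9 of 6522 named genes. Of these chemokines, 5 had more than 1 probe and 4 had 1 probe.

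RNA came from PIE cells, a porcine line that was derived from the gut epithelium of a newborn, unsuckled pig and was not transformed. All cultures grew for 3 days on collagen and were then exposed for 12 h to ETEC PAMPs, microbial patterns from enterotoxigenic Escherichia coli, which causes diarrhoea in piglets. The TL2937+ETEC culture had been kept for 48 h with Lactobacillus jensenii TL2937 before the PAMPs, the TL2766+ETEC culture for 48 h with Lactobacillus plantarum TL2766, and the ETEC culture with medium alone. Each group was 1 sample on 1 array. Unchallenged cells were not analysed here, so no value below is a response to ETEC PAMPs, and cells with lactobacilli but without PAMPs are not among the groups. There is no spread between replicates, no test and no p-value for any difference, and whether groups overlap cannot be asked. The cells were measured in bulk, so fewer cells that express a gene cannot be told apart from less RNA per cell.

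Chemokines are small secreted proteins that draw leukocytes along a gradient through G-protein-coupled receptors. CXCL2 and CXCL8 act on neutrophils through CXCR2, and CXCL8 also through CXCR1. CXCL9, CXCL10 and CXCL11 are induced by interferons and draw activated T cells and natural killer cells through CXCR3, whereas CCL20 draws lymphocytes and dendritic cells that carry CCR6 and is made by gut epithelium under bacterial stimuli. These roles are known mainly from human and mouse.

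Signals are given as scaled intensity, the processed spot signal divided by its array's 75th percentile and multiplied by the geometric mean of the 3 percentiles (481). The percentiles were 503 (TL2937+ETEC), 481 (TL2766+ETEC) and 459 (ETEC). A scaled intensity compares arrays for 1 probe and not probes with each other. A probe counts as measured where the scanner software flagged it as well above background, and 14 of the 15 chemokine probes were measured on every array. The lowest measured signals of any probe were 11.6, 11.8 and 12.9 on these arrays. The brightest probe stands for its gene, and "called" means measured on both arrays and at least 1.2-fold apart. Each chemokine probe had 1 spot. Probes spotted 5 times elsewhere on the array gave a median standard deviation of the log2 difference between spots of 0.11 for TL2937+ETEC against ETEC (19 probes), the highest being 0.39. For TL2937+ETEC against TL2766+ETEC the median was 0.091 and the highest 0.52 (22 probes). For TL2766+ETEC against ETEC the median was 0.064 and the highest 0.38 (20 probes). These spreads cover spots, not cultures.

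The labelled cell type was set against marker genes. Of 6 epithelial markers on the array, KRT8 alone was measured on all 3 arrays, and dimly, at 18.0 (TL2937+ETEC), 23.9 (TL2766+ETEC) and 19.9 (ETEC). KRT18, EPCAM and CLDN4 were not well above background on any array, and CDH1 and VIL1 not on all of them. The endothelial adhesion genes PECAM1 (84031, 85367 and 86702) and CDH5 (56584, 55877 and 60380) and the mesenchymal filament gene VIM (242690, 252334 and 251703) were bright. The leukocyte marker PTPRC was not well above background on any array, whereas CD14 was measured at 723, 741 and 623. The epithelial identity on the label is therefore not borne out by these probes, and the cells are called PIE cells here. The summed signal of the epithelial markers was 76.4, 74.2 and 81.5, of the endothelial markers 141429, 142010 and 147637, of the mesenchymal markers 284635, 299826 and 305496 and of the leukocyte markers 746, 756 and 648, in the same order of arrays. These sums include markers that were not well above background, and only 2, 2 and 3 of the 6 epithelial markers were measured on these arrays. Of the endothelial markers, KDR was higher in both pretreated cultures (798, 753 and 532) and the dim VWF lower in TL2937+ETEC than in ETEC cells (15.5 against 22.7). Of the mesenchymal markers, ACTA2 (brightest probe 41882, 47431 and 53721) was lower in TL2937+ETEC than in ETEC cells. Its 7 probes gave log2 differences of -0.39 to -0.30 there. For TL2766+ETEC against ETEC they gave -0.71 to -0.17, so the lowest passed 1.2-fold although the brightest did not. Between the pretreated cultures (TL2937+ETEC against TL2766+ETEC) they ran from -0.18 to 0.38. The dim COL1A2 (32.1, 28.5 and 41.8) was lower in both pretreated cultures. Of the epithelial markers, the dim CDH1 was higher in TL2937+ETEC than in ETEC cells (25.1 against 17.2). In TL2766+ETEC against ETEC cells, the dim KRT8 was higher with its brightest probe (log2 difference 0.27). Its other measured probe was within 1.2-fold (0.099). The dim VIL1 was lower in the same comparison (14.2 against 21.5). The part of cell composition in the chemokine differences was not tested.

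The largest chemokine differences were in the CXCR3 ligands, which had lower signals in cells pretreated with L. jensenii TL2937 and nearly equal signals in the other cultures. CXCL9 had 1826 in TL2937+ETEC, 2665 in TL2766+ETEC and 2852 in ETEC cells. CXCL11 had 1658 in TL2937+ETEC, 2398 in TL2766+ETEC and 2488 in ETEC cells. In both genes the culture with TL2937 was the low one and the remaining cultures lay close together. CXCL10 was read by a pair of probes with no more than 6 bases in common. Its brighter probe gave 75382 in TL2937+ETEC, 100067 in TL2766+ETEC and 108264 in ETEC cells, and the other probe gave 44953, 59090 and 63598. The order of the arrays was the same with both. The first 30 bases of these oligonucleotides, 5′ to 3′ as deposited, are shown because the differences of these 3 genes rest on them.
CXCL9 probe: tctcaacgtcctgatcaaaagaagatgaca
CXCL10 brighter probe: ctgagtgggtgctcttcaaaataaaactaa
CXCL10 other probe: gatcattccactttgggacttaatcgaagt
CXCL11 probe: cacataaaggacgaagatgcctaaatccca

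Against ETEC cells, the TL2937+ETEC culture had a log2 difference of -0.64 for CXCL9 (1.56-fold lower), -0.59 for CXCL11 (just past 1.5-fold lower) and -0.52 for CXCL10 (1.44-fold lower, and -0.50 with the other probe). All 3 CXCR3 ligands were called lower. The TL2766+ETEC culture differed from ETEC cells by -0.098 for CXCL9, -0.053 for CXCL11 and -0.11 for both CXCL10 probes, and none was called. Both of these comparisons use the same ETEC array. Set directly against TL2766+ETEC, TL2937+ETEC was lower by -0.55 for CXCL9, -0.53 for CXCL11 and -0.41 for CXCL10, and again all 3 were called. In the RefSeq gene table of the Sscrofa11.1 assembly these genes lie together on 1 chromosome, CXCL10 and CXCL11 side by side and CXCL9 with 1 protein-coding gene between it and CXCL10. CXCL2 and CXCL8, neither of them called against ETEC cells, lie on the same chromosome with 16 to 24 protein-coding genes between them and the CXCR3 ligands.

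**Figure D1:**
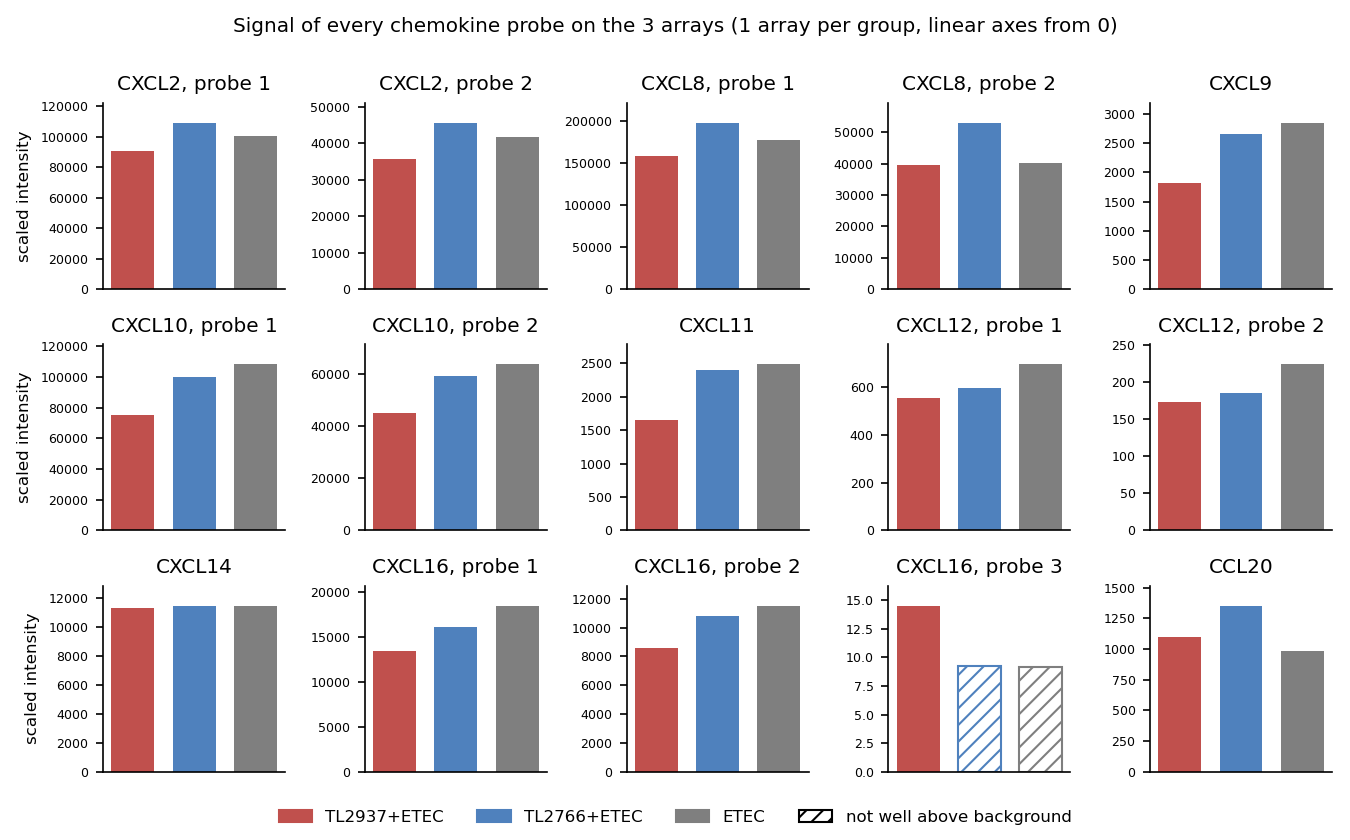
Scaled intensity of all 15 chemokine probes on the arrays of TL2937+ETEC, TL2766+ETEC and ETEC cells (1 array each; every panel has its own linear axis from 0, probes of a gene numbered from the brightest; hatched bars were not well above background). CXCL9, CXCL10 and CXCL11 have their lowest bar in TL2937+ETEC cells, CXCL14 has bars of nearly equal height (11304, 11449 and 11457), and CCL20 has its highest bar in TL2766+ETEC cells.

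The neutrophil attractants CXCL2 and CXCL8 stood higher in TL2766+ETEC cells and lower in TL2937+ETEC cells than in ETEC cells, but by less than 1.2-fold with the brightest probe in each case. The brighter CXCL8 probe had 158172 in TL2937+ETEC, 197873 in TL2766+ETEC and 177737 in ETEC cells. The other CXCL8 probe had 39553, 53084 and 40138 on the same arrays. Both put TL2766+ETEC on top, but the second placed TL2937+ETEC and ETEC cells almost level. For TL2937+ETEC against ETEC the log2 differences were -0.17 and -0.021. For TL2766+ETEC against ETEC they were 0.15 and 0.40, so the second CXCL8 probe passed 1.2-fold (1.32-fold higher) and the first did not (1.11-fold). The gap of 0.25 between the probes was the widest among the chemokines with several measured probes. Between the pretreated cultures both probes were lower in TL2937+ETEC, by -0.32 and -0.42.

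The CXCL8 probes share no run longer than 6 bases, and their first 30 bases are shown because their values differ.
CXCL8 brighter probe: tgactgcaagctttgttatgcagtgctgta
CXCL8 other probe: aacaagcaaaaacccattctccgtggctcc

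CXCL2 was also read by a pair of probes, but these overlap, so they are not independent readings. The last 49 bases of one align with the start of the other with 1 base different, shown in capitals where the brighter probe has it and the other lacks it.
CXCL2 brighter probe, stretch: gttaattacactgtGtttccgctctgtcct
CXCL2 other probe, stretch: gttaattacactgttttccgctctgtcct

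The brighter CXCL2 probe had 90585 in TL2937+ETEC, 109311 in TL2766+ETEC and 100663 in ETEC cells. The other had 35696, 45696 and 41703. The order of the arrays was the same for both, with TL2766+ETEC highest and TL2937+ETEC lowest. Against ETEC cells the log2 differences were -0.15 and -0.22 in TL2937+ETEC and 0.12 and 0.13 in TL2766+ETEC. Between the pretreated cultures, TL2937+ETEC was lower by -0.27 (1.21-fold) and -0.36 (1.28-fold). Bright genes as a whole lay somewhat lower on the TL2937+ETEC array. Over the 314 genes with a mean scaled intensity of at least 30000, which include CXCL2, CXCL8 and CXCL10, the median log2 difference was -0.100 for TL2937+ETEC against ETEC, -0.033 for TL2766+ETEC against ETEC and -0.054 for TL2937+ETEC against TL2766+ETEC. Scalings that follow the signal gave smaller differences for TL2937+ETEC against ETEC. CXCL2 had -0.064 with quantile scaling and -0.069 with cyclic loess, in place of -0.15. CXCL8 had -0.11 and -0.077, in place of -0.17. CXCL10 had -0.44 with both, in place of -0.52, and kept its call.

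CCL20, the CCR6 ligand, was the only one of the 9 chemokines with a higher signal in both pretreated cultures than in ETEC cells, and the only one called higher in any comparison. Its scaled intensity was 1098 in TL2937+ETEC, 1353 in TL2766+ETEC and 983 in ETEC cells. TL2766+ETEC was 1.38-fold above ETEC cells (log2 difference 0.46), and TL2937+ETEC was within 1.2-fold of them (0.16). Against TL2766+ETEC, TL2937+ETEC was lower by -0.30 (1.23-fold). CCL20 rests on 1 probe, which begins with the following 30 bases.
CCL20 probe: atgtaaaaacagatgctccctgctatggaa

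CXCL16 and CXCL12 were lower in TL2937+ETEC than in ETEC cells, and CXCL14 did not differ beyond 1.2-fold between any of the arrays. CXCL16 is a transmembrane chemokine that binds CXCR6 and, as SR-PSOX, takes up oxidised lipoprotein. Its brightest probe gave 13377 in TL2937+ETEC, 16110 in TL2766+ETEC and 18454 in ETEC cells. A further SR-PSOX probe gave 8609, 10824 and 11536. The log2 differences from ETEC cells were -0.46 and -0.42 in TL2937+ETEC and -0.20 and -0.092 in TL2766+ETEC, so both probes gave the same order. Between the pretreated cultures TL2937+ETEC was lower by -0.27 and -0.33. The remaining CXCL16 probe, known only by a resemblance to mouse CXCL16 in its description, lay near background and gave no clear direction. It was measured on the TL2937+ETEC array alone, at 14.5 against 9.24 in TL2766+ETEC and 9.18 in ETEC cells, which were not well above background. Set against the lowest measured signal of any probe on the other array, its signal was 1.13-fold higher for ETEC and 1.23-fold higher for TL2766+ETEC. These are not firm bounds, because other probes not well above background exceeded that lowest signal. The raw spot signal over local background was 1.75 in TL2937+ETEC, 1.61 in TL2766+ETEC and 1.84 in ETEC cells. The stretches below are shown because the dim probe, unlike the bright ones assigned to the same gene, lay near background.
CXCL16 brightest probe: cctcagcttcattatgttcctgtggcatca
CXCL16 further SR-PSOX probe: gagtcctactttacgtgatgtgcaagaaga
CXCL16 dim probe: ccgtcagagctgcatgaaatgtgttgaaat

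CXCL12, the ligand of CXCR4 that retains and guides leukocytes and stem cells, had 555 in TL2937+ETEC, 597 in TL2766+ETEC and 697 in ETEC cells. Its other probe had 173, 185 and 224. Both pretreated cultures were below ETEC cells with both probes, by -0.33 and -0.37 in TL2937+ETEC and by -0.22 and -0.28 in TL2766+ETEC. The dimmer probe thus passed 1.2-fold against ETEC cells in both cultures, and the brighter one in TL2937+ETEC only. The pretreated cultures lay within 1.2-fold of each other (-0.11 and -0.098). CXCL14, which many epithelia make constitutively, had 11304 in TL2937+ETEC, 11449 in TL2766+ETEC and 11457 in ETEC cells. Its log2 differences were -0.019, -0.00097 and -0.018 in the 3 comparisons, TL2937+ETEC against ETEC, TL2766+ETEC against ETEC and TL2937+ETEC against TL2766+ETEC.

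**Figure D2:**
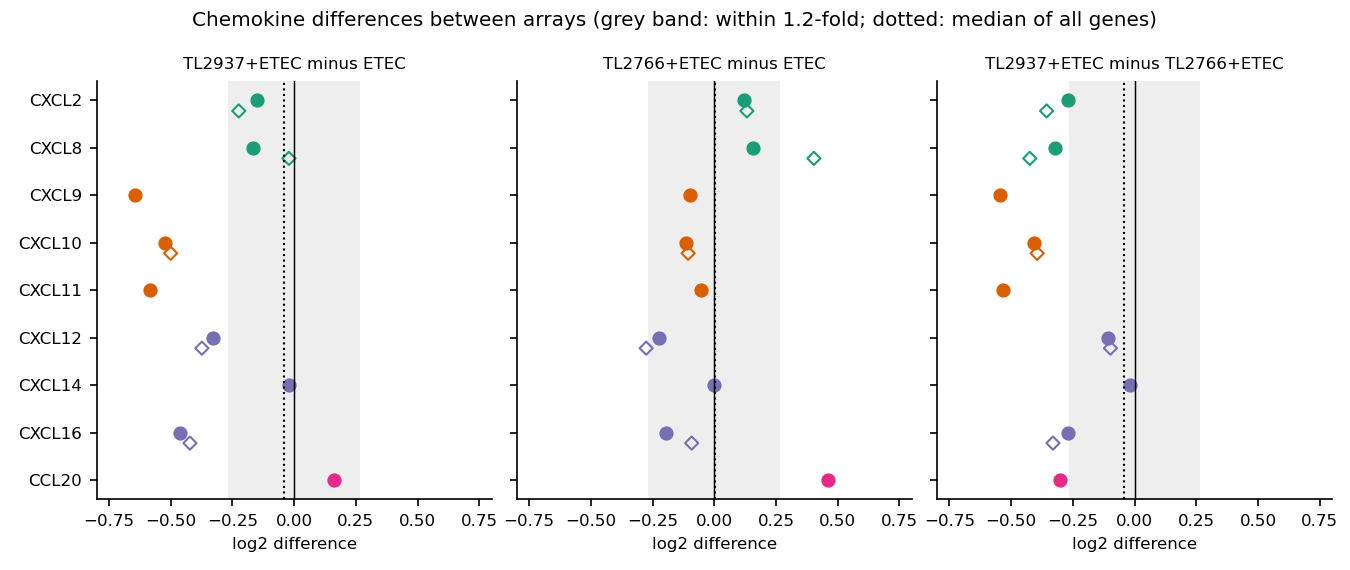
Log2 difference of each chemokine in the 3 comparisons (filled circles, brightest probe; open diamonds, other probes measured on both arrays; grey band, within 1.2-fold; dotted line, median of all genes). In TL2937+ETEC against ETEC the CXCR3 ligands lie between -0.64 and -0.50, whereas in TL2766+ETEC against ETEC CCL20 lies at 0.46 and the CXCR3 ligands inside the band.

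Of the 9 chemokines, 5 (CXCL9, CXCL10, CXCL11, CXCL12 and CXCL16) were called lower in TL2937+ETEC than in ETEC cells, 0 were called higher and 4 lay within 1.2-fold. Among all 4975 genes measured on both arrays, 12.4% were called lower and 7.24% higher. The median log2 difference was -0.33 for the chemokines and -0.040 for all genes. At 1.5-fold, 2 chemokines (CXCL9, and CXCL11 just past the threshold) were lower, against 2.23% of all genes (1.07% were higher). At 2-fold 0 chemokines were lower or higher, against 0.141% and 0.241%. For TL2766+ETEC against ETEC, 1 chemokine (CCL20) was called higher and 0 lower, against 8.10% and 8.91% of 4950 genes, a share near the background, and the medians were -0.053 and 0.0015. Over all genes 401 were higher and 441 lower, and spike-in scaling gave 313 and 537. At 1.5-fold 0 chemokines were higher or lower, against 1.41% and 1.49%, and at 2-fold 0, against 0.323% and 0.242%.

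For TL2937+ETEC against TL2766+ETEC, 7 of the 9 chemokines were called lower and 0 higher, against 7.23% and 4.25% of 4991 genes. Over all genes 361 were lower and 212 higher, and spike-in scaling gave 284 and 263. At 1.5-fold 0 chemokines were lower or higher, against 0.982% and 0.381%, and at 2-fold 0, against 0.200% and 0.0801%. CXCL12 and CXCL14 were the 2 within 1.2-fold, and CXCL2 and CXCL16 were just past it. Over 8 other ways of processing, CXCL9, CXCL10, CXCL11 and CCL20 kept this call in all 8, CXCL8 in 7, CXCL2 in 5 and CXCL16 in 3, so the count of 7 was 5 under quantile or spike-in scaling and 4 under cyclic loess. The median log2 difference was -0.30 for the chemokines and -0.043 for all genes, of which 65.3% lay below 0. All 9 chemokines and all 14 probes measured on every array were lower in TL2937+ETEC than in TL2766+ETEC, with the exception that CXCL14 was slightly higher under quantile, cyclic loess and spike-in scaling. From low to high, the signals ran TL2937+ETEC, TL2766+ETEC, ETEC for 6 genes (CXCL9, CXCL10, CXCL11, CXCL12, CXCL14 and CXCL16). They ran TL2937+ETEC, ETEC, TL2766+ETEC for CXCL2 and CXCL8, and ETEC, TL2937+ETEC, TL2766+ETEC for CCL20. Many neighbours in these orders differ by less than 1.2-fold, among them TL2766+ETEC and ETEC cells for every chemokine but CCL20, with its brightest probe, and their order has no meaning beyond these arrays. Called differences are also not shown to be larger than the spread between cultures, which was not measured.

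**Figure D3:**
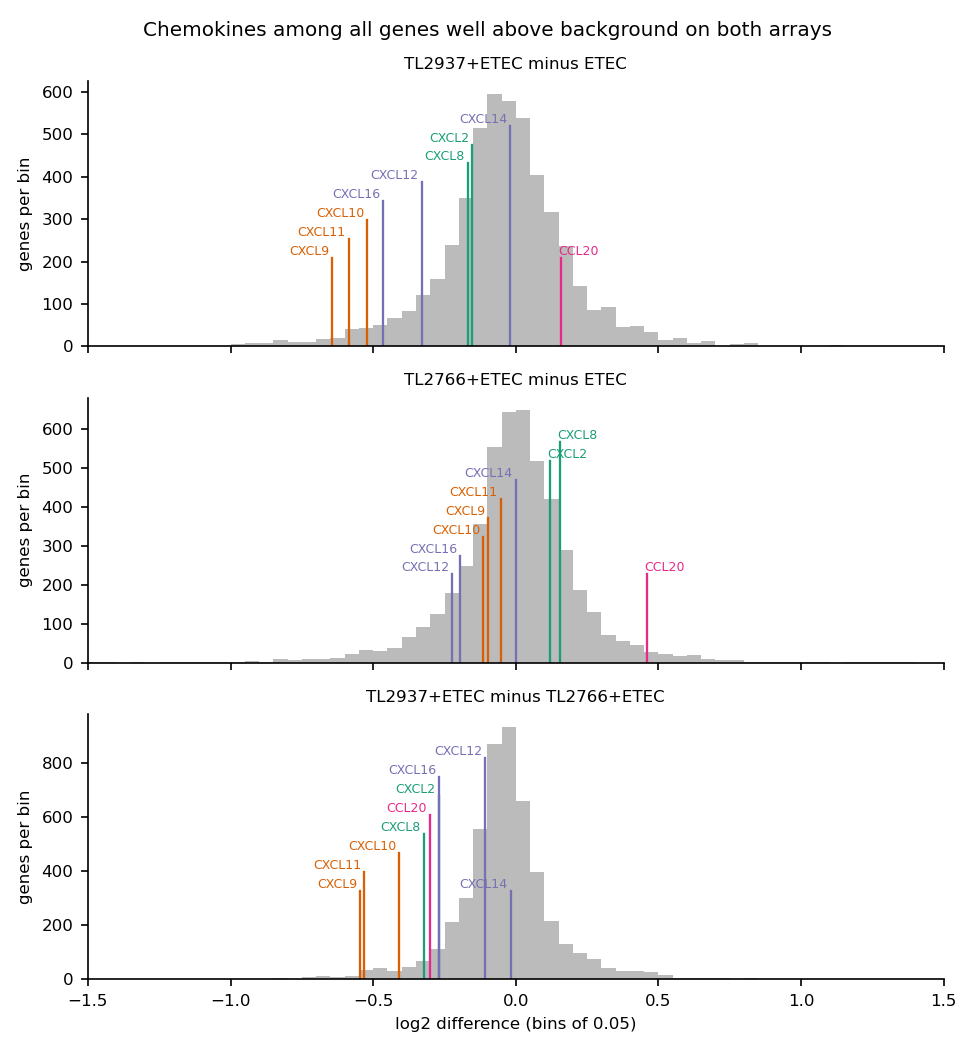
Distribution of the log2 difference over all genes measured on both arrays (grey bars, genes per bin of 0.05; differences beyond 1.5 in size are not drawn), with a line for each chemokine, whose height serves the label only. In TL2937+ETEC against ETEC, CXCL9, CXCL11, CXCL10 and CXCL16 lie in the lower tail, and in TL2766+ETEC against ETEC only CCL20 lies clear of the main body.

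Genes that act with these chemokines were taken from 5 lists. Of the other CXC ligands, 3 of 8 were on the array by gene symbol and 1 of these was measured. It was AMCF-II, listed in RefSeq under the synonym CXCL6, a porcine neutrophil attractant, with 2250 in TL2937+ETEC, 3024 in TL2766+ETEC and 3074 in ETEC cells. It was lower in TL2937+ETEC than in ETEC cells (-0.45) and than in TL2766+ETEC cells (-0.43), and TL2766+ETEC was level with ETEC (-0.024). CXCL13 and PPBP were not well above background on any array. A bright probe without a gene symbol resembles macaque CXCL5 in part and is described at the end. It was within 1.2-fold in all 3 comparisons (0.12 for TL2937+ETEC against TL2766+ETEC).

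Of 9 receptors, 7 were on the array and 5 were measured on every array, and CXCR6 and CCR6, the receptors of CXCL16 and CCL20, were not well above background on any. CXCR2 was dim and was called lower in TL2937+ETEC than in ETEC cells (35.6 against 46.8, log2 difference -0.40). It had 40.5 in TL2766+ETEC cells. CXCR4 had 4368 in TL2937+ETEC, 4829 in TL2766+ETEC and 4216 in ETEC cells, and no pair of arrays differed by 1.2-fold with this brightest probe. Its 3 measured probes lay between 0.074 and 0.30 for TL2766+ETEC against ETEC, so the highest passed 1.2-fold. ACKR3, which removes CXCL12 and CXCL11, had 3077 in TL2937+ETEC, 3706 in TL2766+ETEC and 3688 in ETEC cells, and was called lower in TL2937+ETEC than in TL2766+ETEC (-0.27). Among the proteases, DPP4, which trims and inactivates CXCR3 ligands and CXCL12, had 77.1 in TL2937+ETEC, 93.1 in TL2766+ETEC and 114 in ETEC cells. It was called lower in both pretreated cultures (-0.57 and -0.29), and lower in TL2937+ETEC than in TL2766+ETEC (-0.27). ADAM10 and ADAM17 shed CXCL16 from the cell surface. With the brightest probe they differed from ETEC cells by -0.038 and -0.14 in TL2937+ETEC and by -0.074 and -0.0087 in TL2766+ETEC. The 4 ADAM17 probes lay between -0.0087 and 0.29 for TL2766+ETEC against ETEC, so the highest passed 1.2-fold.

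The interferon pathway that leads to the CXCR3 ligands had 11 of 12 listed genes measured. Of these, 2 were called lower in TL2937+ETEC than in ETEC cells and 9 lay within 1.2-fold, with a median of -0.14 against -0.040 for all genes. A count of 2 among 11 genes is near the background share of 12.4%. They were STAT2, a transcription factor of type I interferon signalling (4328 against 6195, -0.52), and the interferon regulatory factor IRF7 (5765 against 8314, -0.53). All 5 STAT2 probes (-0.62 to -0.39) had the same sign. The receptor subunits IFNGR1, IFNGR2, IFNAR1 and IFNAR2, the kinases JAK1, JAK2 and TYK2, and IRF1 and IRF9 were within 1.2-fold, between -0.17 and 0.064. In TL2766+ETEC against ETEC none of the 11 was called with the brightest probe, which gave -0.22 for STAT2. All 5 STAT2 probes were lower there too (-0.30 to -0.086), and the lowest passed 1.2-fold. STAT2 and IRF7 were also called lower in TL2937+ETEC than in TL2766+ETEC (-0.30 and -0.48). That is 2 of the 11 genes, set against 7.23% of all genes called lower in this comparison.

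The NF-kB and MAP kinase list, whose factors drive CXCL8, CXCL2 and CCL20, had 13 of 17 genes measured. With the brightest probe, none was called in TL2937+ETEC against ETEC (median -0.065) or in TL2766+ETEC against ETEC (median 0.056). Other probes passed 1.2-fold higher, reaching 0.37 for FOS, 0.34 for IKBKB and 0.29 for CHUK in TL2937+ETEC against ETEC. In TL2766+ETEC against ETEC an IKBKB probe reached 0.42. No measured probe of the list was past 1.2-fold lower in either comparison. NFKBIA, which encodes the NF-kB inhibitor and is itself an NF-kB target, had 66093 in TL2937+ETEC, 79178 in TL2766+ETEC and 74099 in ETEC cells. All its differences lay within 1.2-fold, and it was chosen for naming after its values were seen. Between the pretreated cultures, 1 gene of the list, the kinase subunit IKBKB, was called lower in TL2937+ETEC (-0.29), which is near the background share of 7.23%. Its 3 measured probes lay between -0.29 and -0.078. In the same comparison, probes other than the brightest reached 0.58 for FOS and -0.44 for MYD88. The receptor gene TLR4, whose product senses lipopolysaccharide, had 6785, 6713 and 6319 on the TL2937+ETEC, TL2766+ETEC and ETEC arrays.

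**Figure D4:**
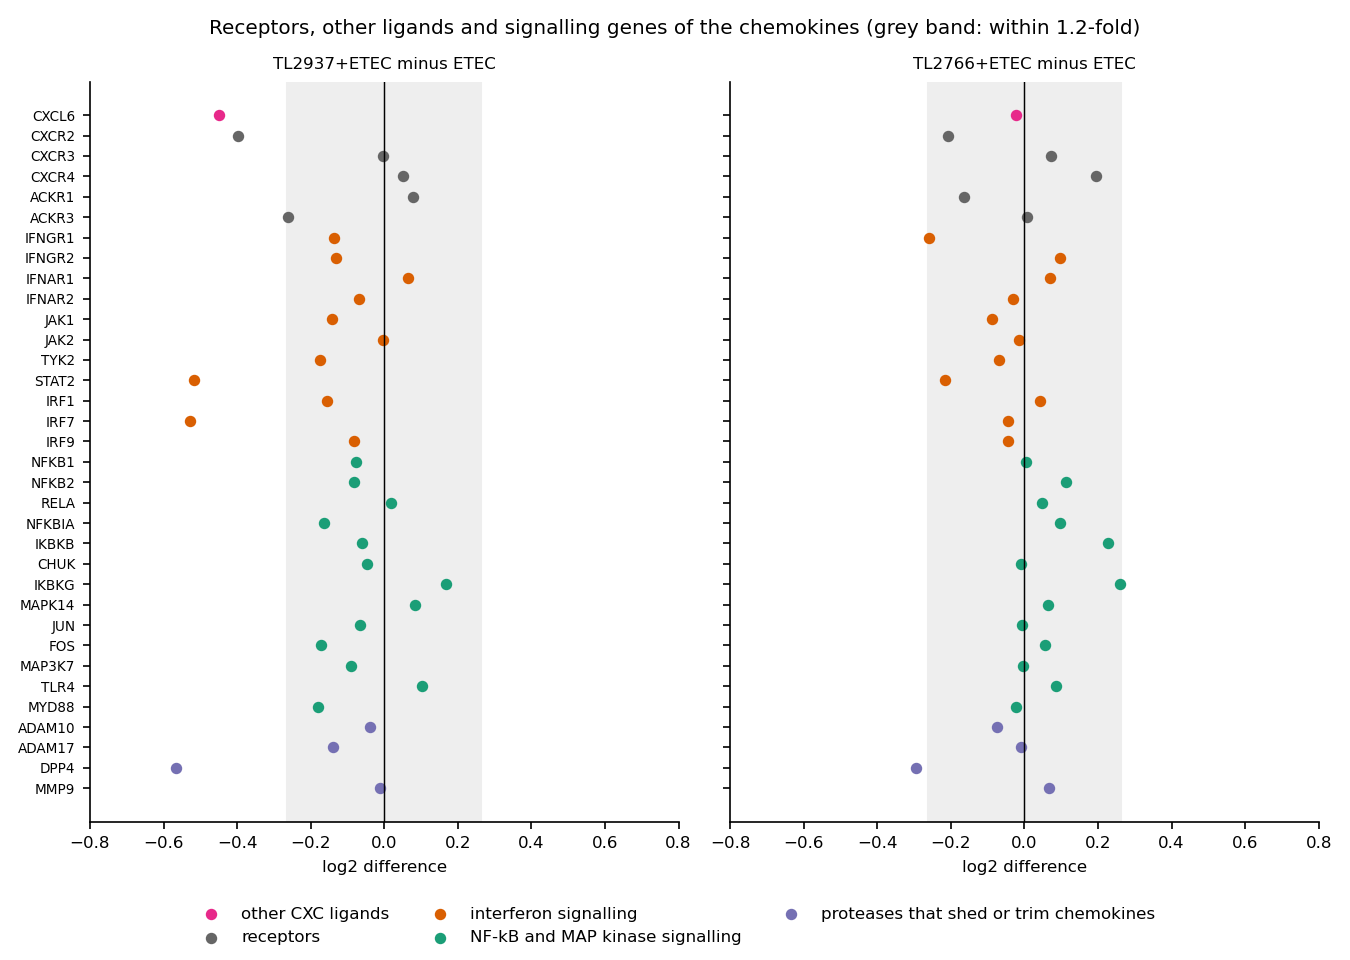
Log2 difference from ETEC cells of the genes in the 5 lists that were measured on both arrays, for TL2937+ETEC (left) and TL2766+ETEC (right); colours mark the lists and the grey band marks differences within 1.2-fold. STAT2, IRF7, DPP4, CXCL6 (AMCF-II) and CXCR2 lie below the band for TL2937+ETEC, and DPP4 alone lies outside it for TL2766+ETEC.

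The genes most like CXCL9 and CCL20 were sought over all 3 arrays, by the Euclidean distance between the pairs of log2 differences from ETEC cells, among 4921 other genes measured on every array. The nearest to CXCL9 were RGS4 (distance 0.026, with -0.63 in TL2937+ETEC and -0.078 in TL2766+ETEC), RSAD2 (0.050) and ZNF37A (0.050). Within a distance of 0.1 there were 12 genes. The nearest to CCL20 were SDSL (distance 0.033, with 0.18 in TL2937+ETEC and 0.44 in TL2766+ETEC), TRIM9 (0.036) and RBP7 (0.046), and 18 genes lay within 0.1. With 3 arrays a pattern is only a pair of numbers, so many genes come close to any pattern.

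**Figure D5:**
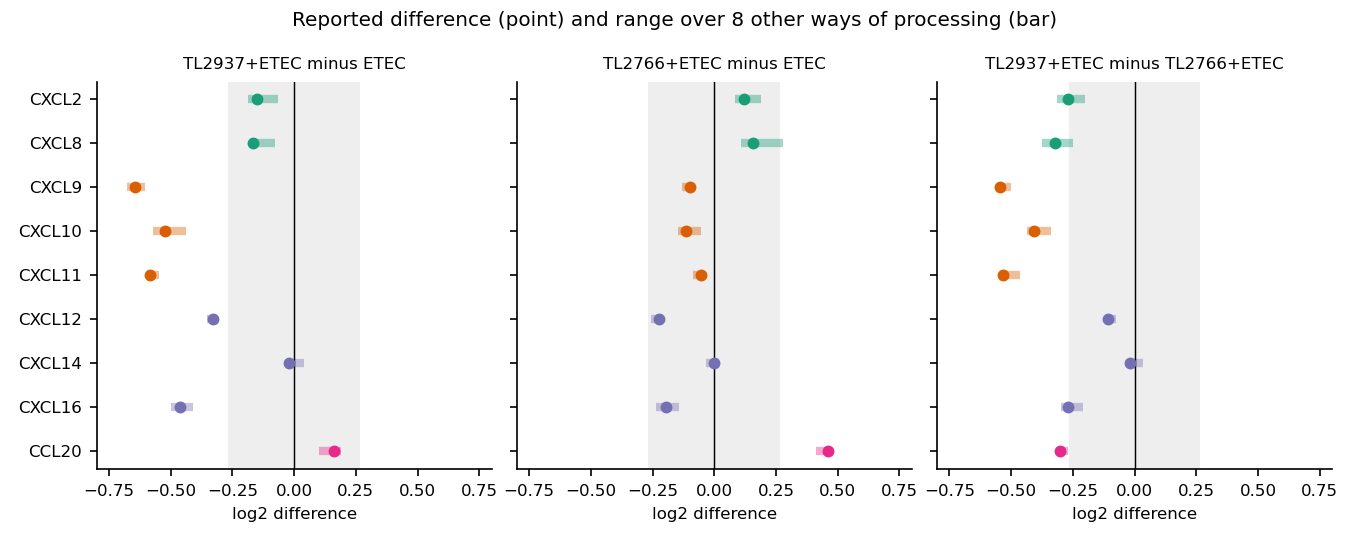
Log2 difference of each chemokine as reported (point) and its range over 8 other ways of processing (bar), in the 3 comparisons; the grey band marks differences within 1.2-fold. The bars of CXCL9, CXCL10, CXCL11, CXCL12 and CXCL16 stay outside the band in TL2937+ETEC against ETEC, as does that of CCL20 in TL2766+ETEC against ETEC.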

How the data were processed

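The deposited intensity of each spot was made, per the file headers, by Feature Extraction (Agilent, version 10.7.3.1): spatial and multiplicative detrending were on, and surrogate values stand in for signals near background. No scaling between arrays is recorded there. The authors' value table held the same intensity, rounded (differences of at most 0.496%). The arrays share a slide, by the names of the deposited files, and each group has its own position, so position and group cannot be told apart.

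From these files, log2 processed intensity minus the array's 75th percentile was computed, without control and outlier spots. No spot was saturated. Names came from the array, and from RefSeq (Sscrofa11.1) by accession, gene identifier or synonym. Of 43603 probes, 13900 were named. The members and lists were chosen with earlier results of these data known. A listed gene is not reported here, and the counts of its list leave it out. The text names every member and the listed genes past 1.2-fold, at most 4 per list and comparison, plus the 3 nearest genes to CXCL9 and to CCL20. Other genes of the lists and markers named were chosen after their values were seen.

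With 1 array per group no test was made. The steps were tested on simulated data with planted changes of 1.5-fold and 2-fold only, so calls near 1.2-fold were not tested there. Alternatives were a normexp background correction (offset 50), quantile, cyclic loess, median and spike-in scaling (8 probes), the authors' table, outlier spots kept, the mean of all probes, other background filters, and calls at 1.5-fold or 2-fold. R 4.3.3 with limma 3.58.1 served normexp, quantile and cyclic loess. All else ran in Python 3.11.15 with pandas 2.3.3, numpy 2.4.6 and, for plots, matplotlib 3.10.9.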

Additional observations from a re-analysis of the deposited data

How the results depend on the processing

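Each chemokine's log2 difference was recomputed under 8 alternatives. The 5 chemokines called lower in TL2937+ETEC against ETEC, and CCL20 in TL2766+ETEC against ETEC, kept their call in all 8. CXCL9 ranged from -0.68 to -0.60 for TL2937+ETEC against ETEC. CXCL14, level in all 3 comparisons, took the opposite sign in 3 of the 8 in each.

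Some counts moved. In TL2937+ETEC against ETEC, 2 chemokines were lower at 1.5-fold and 0 at 2-fold. In TL2766+ETEC against ETEC, 2 were higher (CXCL8 was added) with the mean of all probes, and 0 at 1.5-fold or 2-fold. In TL2937+ETEC against TL2766+ETEC, 7 were lower. Of these, 6 were lower with normexp or median scaling (without CXCL16), 5 with quantile or spike-in scaling (without CXCL2 and CXCL16), 4 with cyclic loess (without CXCL2, CXCL8 and CXCL16), and 0 at 1.5-fold or 2-fold; the cause was not tested.

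Counts over all genes followed the filter. For TL2937+ETEC against ETEC, 360 genes were higher and 616 lower. The numbers were 730 and 1188 without a background filter, 129 and 308 above the median signal, 53 and 111 at 1.5-fold and 12 and 7 at 2-fold, and 152 higher with normexp. For TL2766+ETEC against ETEC (401 and 441) they were 793 and 1038, 164 and 172, 70 and 74, 16 and 12, and 190 and 252 with normexp. Between the pretreated cultures (212 and 361) they were 709 and 786, 29 and 121, 19 and 49, 4 and 10, and 38 and 152.

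No paired analysis was possible because each group had 1 array. Leaving out an array leaves no comparison. The number of arrays limits every value, and signals near background, such as the dim CXCL16 probe, CXCR2 and DPP4, are the least precise.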

Other observations

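A probe described by partial resemblance to macaque CXCL5, which carries no gene symbol and so stands in no list, had scaled intensities of 11905 in TL2937+ETEC, 10967 in TL2766+ETEC and 11848 in ETEC cells. Its log2 differences were 0.0070 for TL2937+ETEC against ETEC, -0.11 for TL2766+ETEC against ETEC and 0.12 for TL2937+ETEC against TL2766+ETEC. It thus lay within 1.2-fold in all 3 comparisons.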
